A study of Mus musculus with 16 samples.

Results

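Interferon-stimulated genes are the genes that a cell switches on when interferons bind its receptors. They were described here as a set of 40 named mouse genes, and 40 of 40 were present among the 26466 genes of the deposited table of all libraries. All of the 40 passed the filter on low values, which left 26463 genes to test. The measurements were bulk RNA sequencing of 16 transplanted mouse glioblastomas, malignant brain tumours of glial character, labelled Type 1 or Type 2. Some tumours of either label carry the mark TAM depleted, TAM standing for the tumour-associated macrophage, a term that covers blood-derived macrophages and brain microglia found inside a tumour. There were 4 Type 2 TAM depleted, 4 Type 2 Control, 3 Type 1 TAM depleted and 5 Type 1 Control tumours, each sequenced as 1 library. The series title speaks of lineage-based models and of progression independent of the macrophages. The genotype, strain, sex and age of the animals, the cell of origin of each tumour kind, and the means of depletion do not appear in the sources used here. The sample descriptions carry identifiers whose meaning is not stated, and nothing else ties a tumour to an animal or a batch. Each p-value therefore reflects variation among these tumours, which may in part be technical.

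Interferons of type I (alpha and beta) and type II (gamma) act through separate receptors and JAK kinases. Type I interferon leads to assembly of the factor ISGF3, which contains STAT2 and IRF9 and binds the interferon-stimulated response element (ISRE) in promoters. Interferon gamma mostly acts at the gamma-activated site (GAS) and through IRF1. In brain tumours, macrophages, microglia, lymphocytes and tumour cells can all respond to these signals. The names Type 1 and Type 2 in the rest of the text refer to the tumours, not to interferons.

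The promoters of 8 genes are shown to place these elements in the genes on which the results turn. They are the 2 genes that fell with depletion in Type 2 tumours (Apol9b, Trim25), the 2 that were higher in Type 2 than in Type 1 controls (Ddx58, Eif2ak2), and 4 genes of the families described below (Ifit1, Isg15, Igtp, Irf1). Each line runs 5′ to 3′ on the gene's strand, from 120 bases before to 30 bases after a transcription start of the RefSeq annotation on GRCm38.p6, and capitals mark matches on either strand to GAAA, any 2 bases and GAAA again (ISRE), or to TTCNNNGAA (GAS).
Apol9b (chr15:77728952-77729101, + strand): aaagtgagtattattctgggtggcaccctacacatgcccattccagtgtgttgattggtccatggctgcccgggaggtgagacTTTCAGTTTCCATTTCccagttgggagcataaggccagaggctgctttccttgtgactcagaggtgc
Trim25 (chr11:88999283-88999432, + strand): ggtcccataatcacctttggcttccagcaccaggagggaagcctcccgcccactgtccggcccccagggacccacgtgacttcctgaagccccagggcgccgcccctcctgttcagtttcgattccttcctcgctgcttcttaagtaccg
Ddx58 (chr4:40239796-40239945, - strand): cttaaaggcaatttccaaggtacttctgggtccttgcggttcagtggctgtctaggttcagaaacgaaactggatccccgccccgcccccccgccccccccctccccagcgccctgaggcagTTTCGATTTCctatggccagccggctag
Eif2ak2 (chr17:78882543-78882692, - strand): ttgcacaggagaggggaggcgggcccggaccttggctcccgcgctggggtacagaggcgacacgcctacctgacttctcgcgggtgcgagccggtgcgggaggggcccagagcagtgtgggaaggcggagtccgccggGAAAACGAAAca
Ifit1 (chr19:34640769-34640918, + strand): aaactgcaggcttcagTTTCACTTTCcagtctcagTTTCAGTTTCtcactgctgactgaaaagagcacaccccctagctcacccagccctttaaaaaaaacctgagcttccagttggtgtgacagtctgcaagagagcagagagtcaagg
Isg15 (chr4:156200789-156200938, - strand): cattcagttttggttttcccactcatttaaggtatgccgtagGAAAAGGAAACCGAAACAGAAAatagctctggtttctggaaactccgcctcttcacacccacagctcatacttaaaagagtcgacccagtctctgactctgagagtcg
Igtp (chr11:58199436-58199585, + strand): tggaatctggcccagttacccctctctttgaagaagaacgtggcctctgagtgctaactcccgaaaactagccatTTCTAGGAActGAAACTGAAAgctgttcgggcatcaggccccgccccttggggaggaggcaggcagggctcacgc
Irf1 (chr11:53769894-53770043, + strand): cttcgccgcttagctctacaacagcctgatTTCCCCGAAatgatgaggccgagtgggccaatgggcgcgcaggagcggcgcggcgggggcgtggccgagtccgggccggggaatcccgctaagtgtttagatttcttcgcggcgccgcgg
Apol9b, Ifit1 and Isg15 hold their matches upstream of the start, those of Ddx58 and Eif2ak2 lie just after it, and Igtp has both elements side by side. Irf1 holds the GAS letters upstream of its start, and neither element's letters are in the Trim25 window shown. Promoter windows of 250 bases before to 50 bases after a start were found for 30 of the 40 genes. Of these 30, 18 (60%) held the ISRE letters, overlapping matches included, against 3.99% of 27025 genes. The GAS letters were in 9 of 30 (30%), against 9.55% of all genes. By family, 5 of 5 GBP and IRG GTPase genes, 3 of 4 IFIT genes and 0 of 2 immunoproteasome genes held the ISRE letters. A match to letters is a description of sequence, not a binding site.

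Reads recovered from the deposited values numbered 4.21 to 18.3 M (mega) per library, with means of 12.2 ± 5.22 M in Type 2 TAM depleted, 9.74 ± 4.98 M in Type 2 Control (SD, n = 4 each), 15.3 ± 0.91 M in Type 1 TAM depleted (SD, n = 3) and 6.32 ± 0.74 M in Type 1 Control libraries (SD, n = 5). Values below are normalized counts, the reads divided by the authors' size factors, and fold changes are on the scale of log2(normalized count + 1). The libraries fell into 2 sets by reads in 997 olfactory and vomeronasal receptor genes, which brain tumours are not known to express. There were 9 libraries with 2717 to 8650 such reads per M (high background) and 7 with 97.0 to 811 (low background). A single gene, Gm10800, took 13.8% to 58.2% of the reads in high-background libraries and 0.0491% to 2.03% in low-background ones. Fewer reads were thus left for other genes than the totals show. Background reads may also be counted in the members themselves, which would weigh most where counts are low, as for Apol9b, Oas1a and Mx1. How many of a member's reads were background was not measured. In Type 2, high background marked TAM depleted 3 and 4 and Control 1 and 3. In Type 1, 5 of 5 Control libraries were high and 3 of 3 TAM depleted libraries were low, so background and depletion cannot be told apart there. Markers of glioma and neural precursor cells averaged 10.1 ± 1.09, 9.91 ± 1.36, 9.08 ± 0.66 and 8.53 ± 1.03 on the log2 scale in Type 2 TAM depleted, Type 2 Control, Type 1 TAM depleted and Type 1 Control libraries (mean of 8 genes, SD over libraries). RNA of these genes was thus present in every group, with the lowest library mean at 6.75, in Type 1 Control. The share of tumour cells in a library was not measured.

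Per kilobase of exon, the highest levels were those of 4 of the 6 GBP and IRG GTPases, which act against pathogen-containing vacuoles and are strongly induced by interferon gamma. Gbp2 averaged 418 normalized counts per kb over the 16 libraries, Igtp 288, Irgm1 205 and Gbp3 165. Bst2 followed at 127, above the GTPases Iigp1 (117) and Gbp7 (114). Gbp2, Igtp and Irgm1 held the same first 3 ranks in each of the 4 groups. The lowest levels per kb were those of Oas3 at 11.3, Mx1 at 12.95 and Apol9b at 13.3, which are antiviral effectors. Neighbours in this order were not tested, and their values overlap between libraries. Gbp2, for example, ranged over the libraries between 96.8 and 3734 normalized counts.

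**Figure D1:**
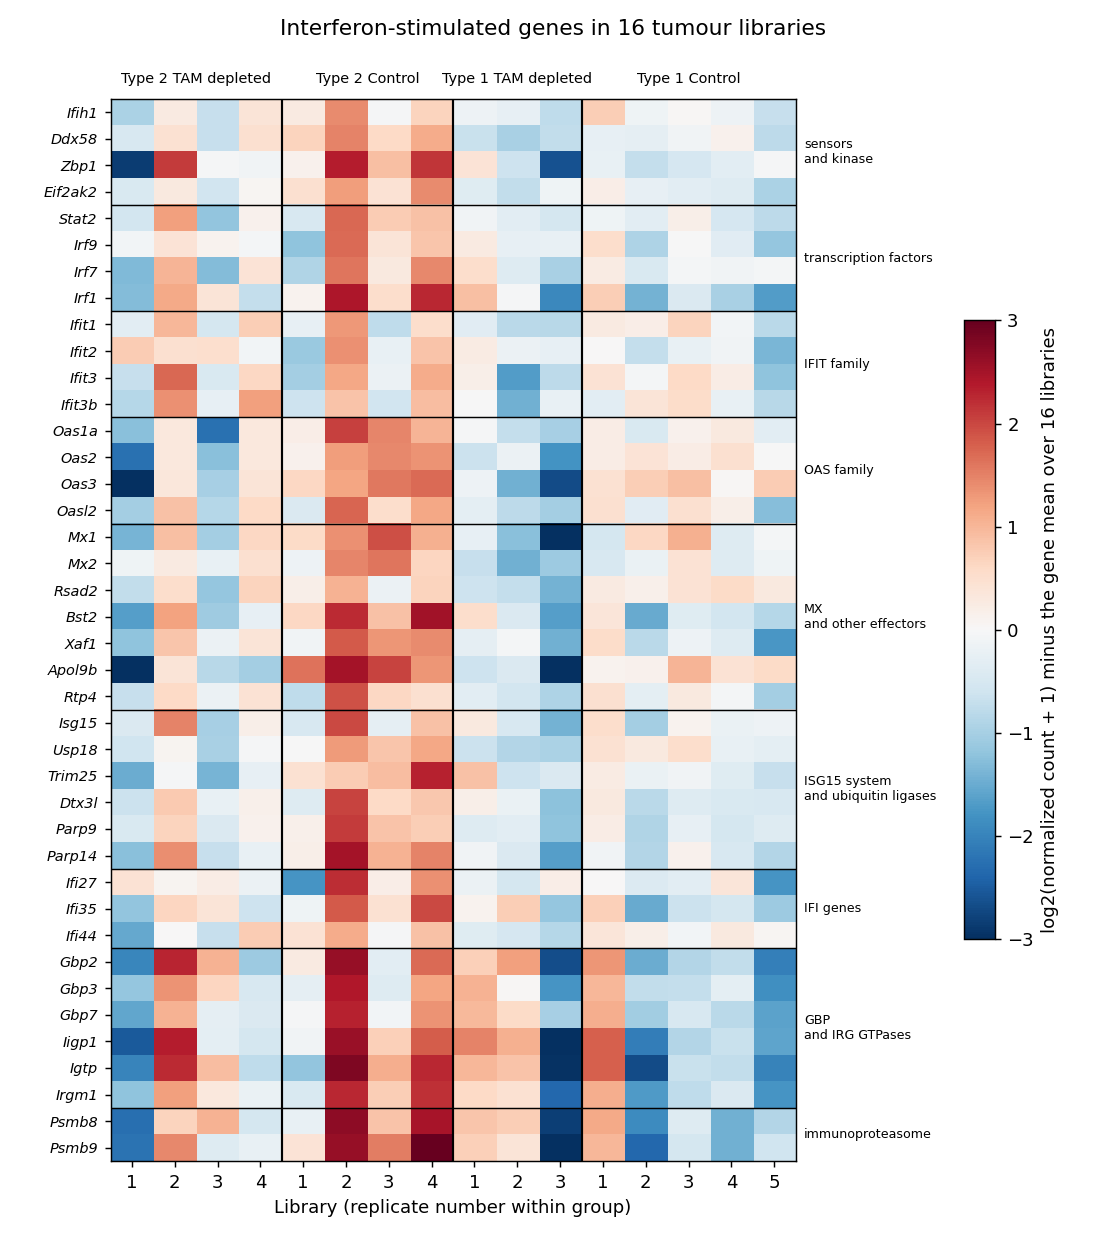
Each row is a gene and each column a library, grouped as Type 2 TAM depleted, Type 2 Control, Type 1 TAM depleted and Type 1 Control; colour is log2(normalized count + 1) minus the gene's mean over 16 libraries, with values past 3 or -3 shown in the end colours. Type 2 Control 2 and 4 are red in most rows, and Type 2 TAM depleted 1 and Type 1 TAM depleted 3 are blue in most, deepest for the GTPases and the immunoproteasome.

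Members ranked the libraries of a group alike, as the heatmap of the 40 genes shows. Type 2 TAM depleted 2 was the highest of its group for 29 of 40 genes and TAM depleted 1 the lowest for 29. Type 2 Control 2 was the highest for 30 and Control 1 the lowest for 30. Type 1 TAM depleted 1 was the highest for 32 and TAM depleted 3 the lowest for 32. In Type 1 Control libraries the counts were less one-sided, with Control 1 the highest for 24 and Control 5 the lowest for 21. Over the 40 genes the mean level was 6.92 ± 0.88 in Type 2 TAM depleted, 8.02 ± 0.86 in Type 2 Control (SD, n = 4 each), 6.53 ± 0.81 in Type 1 TAM depleted (SD, n = 3) and 6.82 ± 0.49 in Type 1 Control libraries (SD, n = 5) on the log2 scale.

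The families differed in how much they varied between libraries of 1 group. The pooled within-group SD had a median of 1.45 on the log2 scale over the 6 GBP and IRG GTPases, and it was 1.49 and 1.51 for the immunoproteasome genes Psmb8 and Psmb9. It was 0.50 over the 4 sensors and kinase, 0.76 over the 4 IFIT genes and 0.85 over all 40 members, against 0.72 over all genes tested and 0.61 over the 17838 genes within the members' range of mean count. Igtp was the most variable member at 1.86 and Eif2ak2 the least at 0.42. In the library with the lowest GTPase level, Type 1 TAM depleted 3, the 6 genes averaged 6.55 on the log2 scale, while TAM depleted 1 and 2 of that group stood at 9.84 and 9.57. The same library had the lowest mean of the T and NK cell markers at 0.97, with Cd3d, Cd2, Ncr1 and Gzmb at 0 reads, against 4.12 and 3.40 in TAM depleted 1 and 2. Type 2 TAM depleted 1 was likewise the lowest of its group for both, at 7.14 for the GTPases and 1.28 for the T and NK cell markers, with Cd3d, Klrb1c and Gzmb at 0. Both libraries were also the lowest of their groups for the macrophage markers, at 6.002 in Type 1 TAM depleted 3 and 6.37 in Type 2 TAM depleted 1. In the Control groups the GTPases spanned 2.80 (Type 2) and 3.15 (Type 1) log2 units, while the T and NK cell markers spanned 0.51 in each. These markers had low counts there, Cd3d for example 12.4 to 24.4 in Type 1 Control, where every library had high background. Background reads may narrow the span of genes with such low counts. Neither this nor the part of T and NK cells and macrophages in the spread was tested.

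**Figure D2:**
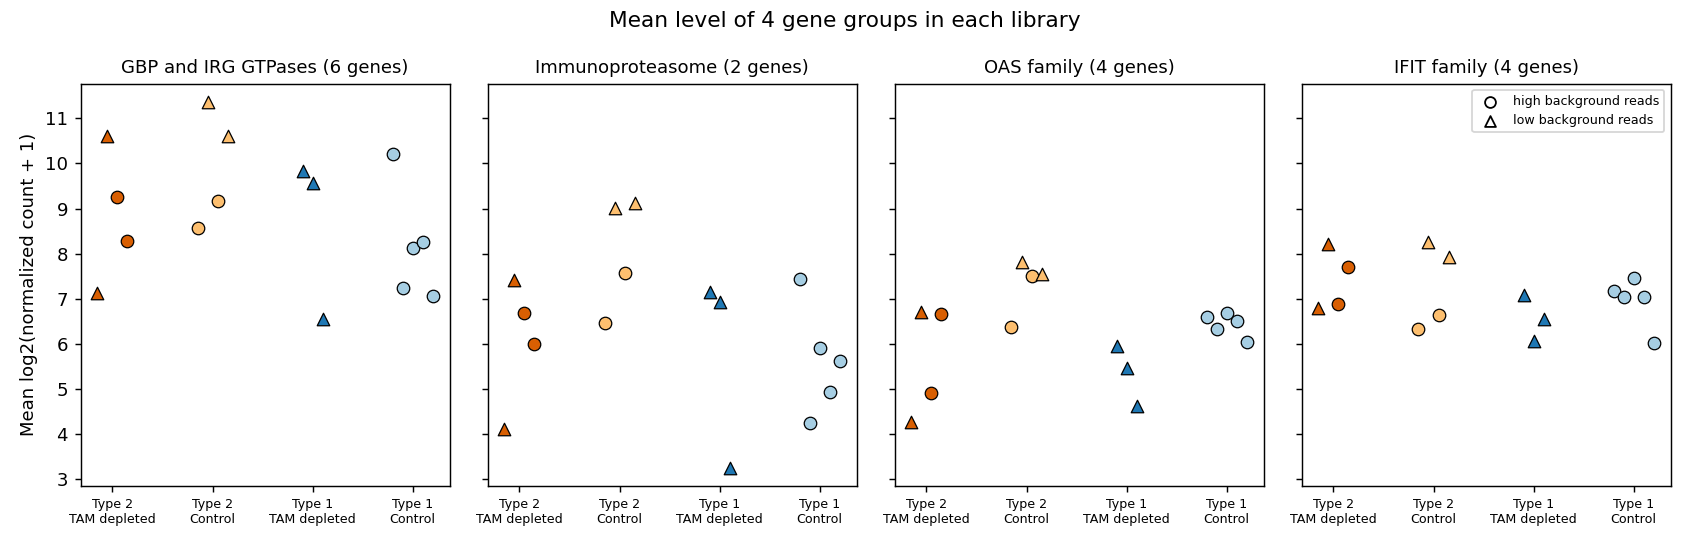
Mean log2(normalized count + 1) of 4 gene groups in each library, 1 point per library, with circles for high and triangles for low background reads; columns run Type 2 TAM depleted, Type 2 Control, Type 1 TAM depleted, Type 1 Control. The GTPases and the immunoproteasome span over 3 log2 units in 3 of the 4 groups (from 3.15 to 3.89), while the IFIT genes span 1.04 to 1.92 in every group.

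In Type 2 tumours, TAM depletion was accompanied by lower levels of Trim25 and Apol9b, the 2 of 40 members that passed the test over all genes. Among all genes 1.24% passed in the lower, 2.37% in the higher and 3.61% in either direction, and the members' 2 of 40 is a small count. Most of the other members lay on the same side without passing: 36 of 40 members had a negative fold change (59.4% of all genes), with a median of -1.05 against -0.21 over all genes. Without adjustment 16 members had a p under 0.05 in the lower direction (8.16% of all genes) and 0 in the higher one (9.81%). In 5 members (Trim25, Apol9b, Eif2ak2, Ddx58, Oas3) every TAM depleted library lay below every Control library (3.39% of all genes). In bulk tissue, fewer cells of a type and less RNA per cell cannot be told apart.

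Trim25, a ubiquitin and ISG15 ligase known as a cofactor of RIG-I signalling, lies at chr11:88999376-89020293 (GRCm38, + strand, protein-coding). It had 56.9, 157, 60.4 and 136 normalized counts in Type 2 TAM depleted libraries, against 222, 272, 306 and 802 in Type 2 Control libraries. No depleted library reached the lowest control, and the mean was 102 ± 51.4 against 401 ± 270.1 (SD, n = 4 each). It fell by 1.90 on the log2 scale (SE 0.45, 3.74-fold lower, limma-trend adjusted p = 0.0303). In Type 1, Trim25 had 295, 105 and 118 in TAM depleted and 191, 139, 149, 125 and 99.2 in Control libraries, which overlap (log2 fold change 0.16, SE 0.46).

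Apol9b, an interferon-induced apolipoprotein L of the mouse, lies at chr15:77729039-77736382 (GRCm38, + strand, protein-coding). It had 0, 19.1, 7.55 and 6.56 normalized counts in Type 2 TAM depleted libraries, against 46.5, 85.7, 61.4 and 37.4 in Type 2 Control libraries. The groups did not overlap, with means of 8.31 ± 7.96 and 57.7 ± 21.1 (SD, n = 4 each), and TAM depleted 1 was the only library with 0 reads for any member. Apol9b fell by 3.22 on the log2 scale (SE 0.80, limma-trend adjusted p = 0.036). Without TAM depleted 1 the change was -2.36 and did not pass. Counts this low may hold a sizeable part of background reads, which was not tested. Its exons share 51.4% of their 50-base words with the neighbouring copy Apol9a, so how reads were divided between the copies is uncertain.

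**Figure D3:**
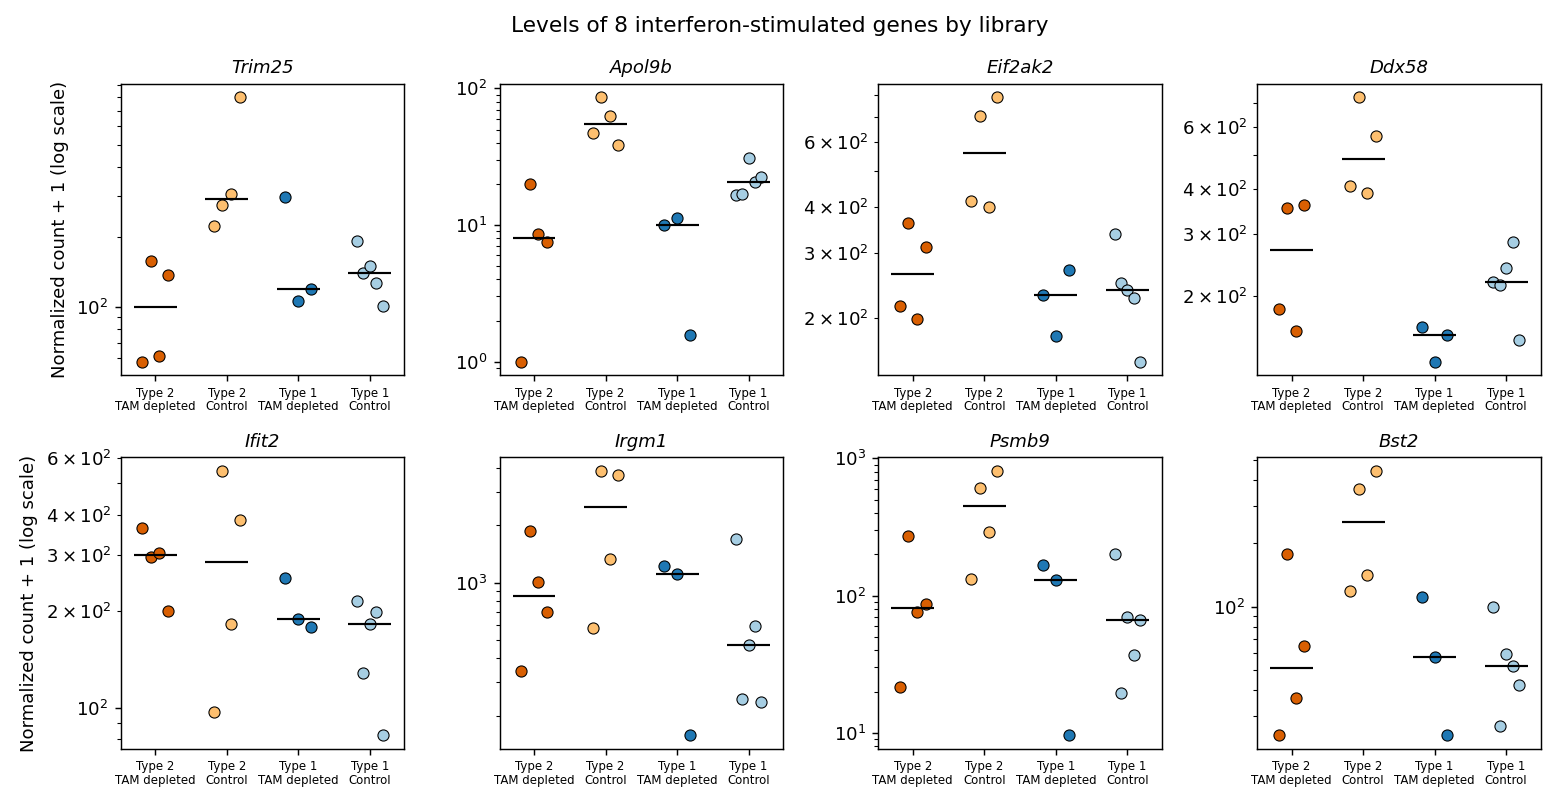
Normalized count + 1 (log axis) of 8 genes in each library, with a bar at the group median; columns run Type 2 TAM depleted, Type 2 Control, Type 1 TAM depleted, Type 1 Control. Trim25, Apol9b, Eif2ak2 and Ddx58 show no overlap between Type 2 TAM depleted and Type 2 Control libraries, while Ifit2, Irgm1, Psmb9 and Bst2 do overlap.

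The 2 calls rested on single libraries. Neither gene passed without Type 2 Control 3 or without TAM depleted 1, or in either background set on its own. The sizes kept their direction there: Trim25 was -1.51 in the high-background and -2.29 in the low-background Type 2 libraries, and Apol9b -2.76 and -3.68. Over the 40 members the median was -0.29 in the high-background Type 2 libraries (30 negative) and -1.69 in the low-background ones (40 negative).

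The sensors and the kinase recognise foreign nucleic acids, and 4 of 4 had negative fold changes in Type 2 depletion (median -1.05). Eif2ak2, which encodes the RNA-activated kinase PKR, had 215, 361, 198 and 309.8 normalized counts in Type 2 TAM depleted and 415, 704, 399 and 792 in Type 2 Control libraries. Ddx58, which encodes the RNA helicase RIG-I, had 184, 353, 159 and 361 in Type 2 TAM depleted and 408, 726, 389.98 and 563 in Type 2 Control libraries. Neither pair of groups overlapped, yet the fold changes of -1.06 (SE 0.31, limma-trend adjusted p = 0.0671) and -1.03 (SE 0.31, adjusted p = 0.0784) did not pass. Ifih1, which encodes the RNA sensor MDA5, stood at -0.83. Zbp1, a sensor of Z-form nucleic acids, stood at -1.60 with an SE of 0.81.

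The transcription factors carry the signal to the genome, and 4 of 4 had negative values in Type 2 depletion (median -0.86) with 0 past the test. Stat2, a subunit of ISGF3, had 209, 719, 135 and 334 normalized counts in Type 2 TAM depleted and 218, 1019.98, 524 and 563 in Type 2 Control libraries. These groups overlap, with TAM depleted 2 above 3 of the 4 controls. Irf1, an early target of interferon gamma signalling, was at -1.45 (SE 0.71), Irf7, an amplifier of type I interferon, at -0.91 and Irf9 at -0.33.

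The IFIT genes, whose products bind viral RNA, were the 1 family without negative values in Type 2 depletion, at 0.01 to 0.22 with a median of 0.11. Their sign turned negative under upper quartile scaling (median -0.17), in limma-voom (-0.05) and with library quality weights (-0.43), so no direction can be given. Ifit2 had 362, 294, 302 and 199.96 normalized counts in Type 2 TAM depleted and 96.5, 547, 182 and 385 in Type 2 Control libraries. The depleted values lay inside the span of the controls. Ifit2's fold change of 0.20 had a 95% interval of -0.75 to 1.15. Within the high-background Type 2 libraries the family's median was 0.78 and within the low-background ones -0.60. Ifit3 and Ifit3b share 51.2% and 45.0% of their 50-base words, mostly with each other, so their separate values are uncertain.

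The OAS genes make the oligoadenylate that activates RNase L, and they had larger negative values in Type 2 depletion, with a median of -1.83 and 0 of 4 past the test. Oas1a had 13.7, 42.5, 6.47 and 42.6 normalized counts in Type 2 TAM depleted and 39.3, 145, 96.2 and 70.8 in Type 2 Control libraries (log2 fold change -1.91, SE 0.54, limma-trend adjusted p = 0.0603). Oas3 had 4.55, 72.4, 28.04 and 75.4 in TAM depleted and 89.4, 132, 174 and 188 in Control libraries of Type 2 (-2.20, SE 0.68, adjusted p = 0.0835). Oas3 did not overlap between the groups, whereas 2 depleted libraries of Oas1a lay above the lowest control. Oas2 stood at -1.76 (SE 0.53). Oasl2, an OAS-like protein, had 150.2, 565, 167 and 465 normalized counts in Type 2 TAM depleted and 225, 1021, 443 and 683 in Type 2 Control libraries, which overlap. Oas1a shares 57.6% of its 50-base words with Oas1g.

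Of the 7 genes of the MX and other effectors group, 7 had negative values in Type 2 depletion (median -1.16), and Apol9b alone passed. Bst2, which encodes tetherin, a protein that holds budding virus at the cell surface, had 23.3, 177, 35.6 and 63.9 normalized counts in Type 2 TAM depleted and 118, 362, 139.8 and 444 in Type 2 Control libraries (log2 fold change -2.01, SE 0.63, limma-trend adjusted p = 0.0866). Xaf1, a pro-apoptotic partner of XIAP, had 92.7, 383, 192 and 284 in TAM depleted and 200.2, 773, 537 and 581 in Control libraries of Type 2. In both genes TAM depleted 2 lay within the span of the controls, and for Bst2 the other 3 depleted libraries lay below every control. The next 3 genes overlapped between the groups as well.

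Mx1, a dynamin-like antiviral GTPase, had 13.1, 67.6, 17.3 and 55.7 normalized counts in Type 2 TAM depleted and 53.6, 94.6, 139.8 and 76.5 in Type 2 Control libraries (-1.46, SE 0.64). Mx2, its paralogue, is annotated as a polymorphic pseudogene. Mx2 had 43.8, 58.00, 40.99 and 67.2 in TAM depleted and 42.9, 133, 148 and 75.4 in Control libraries of Type 2 (-0.79, SE 0.39). Rsad2, the antiviral enzyme viperin, had 45.5, 111, 33.4 and 121 in TAM depleted and 85.8, 159, 67.7 and 121 in Control libraries of Type 2 (-0.60, SE 0.40). Control 2 or Control 3 was the highest library for each of them. Rtp4 stood at -0.52 (SE 0.47).

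In the ISG15 system and the ubiquitin ligases, 6 of 6 genes had negative values in Type 2 depletion (median -1.10), and Trim25 alone passed. Usp18, which removes ISG15 from proteins and damps interferon receptor signalling, had 45.5, 72.9, 34.5 and 67.2 normalized counts in Type 2 TAM depleted and 67.9, 169.7, 123 and 156 in Type 2 Control libraries (log2 fold change -1.20, SE 0.35, limma-trend adjusted p = 0.0653). Parp14, an ADP-ribosyltransferase, had 105, 658, 154 and 216 in TAM depleted and 286, 1417, 518 and 708 in Control libraries of Type 2 (-1.50, SE 0.54). Both genes overlapped between the groups, with TAM depleted 2 above Control 1. Isg15 itself, a ubiquitin-like modifier, stood at -0.47 (SE 0.60), and Parp9 and Dtx3l, whose products form a complex, at -0.99 and -0.74. The exons of Parp9 and Dtx3l overlap by 458 bases on opposite strands, and the library kit does not mark strand.

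The 3 IFI genes had values of -0.36 (Ifi27), -1.22 (Ifi35) and -0.96 (Ifi44) in Type 2 depletion, with 0 past the test. Ifi27 had 153, 119.6, 132 and 99.98 normalized counts in Type 2 TAM depleted and 32.2, 527, 129.99 and 292 in Type 2 Control libraries. The control libraries of Ifi27 were the more scattered, and the depleted ones all lay within their span.

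The GBP and IRG GTPases had 6 of 6 negative values in Type 2 depletion (median -1.14) and 0 past the test. Irgm1, a regulator of the other IRG proteins, had 344, 1870.4, 1001 and 701 normalized counts in Type 2 TAM depleted and 579, 3869, 1336 and 3653 in Type 2 Control libraries. Its groups overlap, and its fold change of -1.15 had an SE of 0.78 (limma-trend adjusted p = 0.465). The family's median was -0.03 within the high-background Type 2 libraries and -2.15 within the low-background ones. The other 5 ranged between -1.49 (Iigp1) and -0.65 (Gbp3).

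The immunoproteasome genes encode subunits that shape peptides for MHC class I, and both had negative values (median -1.98). Psmb9 had 20.5, 273, 75.5 and 85.2 normalized counts in Type 2 TAM depleted and 132, 613, 291 and 814 in Type 2 Control libraries. TAM depleted 2 lay above Control 1, and its -2.24 (SE 0.93, limma-trend adjusted p = 0.205) did not pass. Psmb8 stood at -1.72 (SE 0.92). Psmb9 overlaps Tap1 on the opposite strand, at 5.79% of its exon bases.

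The cell type markers measured beside these values in Type 2 depletion were as follows. Of 14 macrophage markers, 14 were lower and 4 passed (median -1.41), with a summed level of 1774 to 3742 normalized counts in TAM depleted and 3878 to 10105 in Control libraries. Of 11 T and NK cell markers, 11 were lower and 0 passed (median -1.59), with sums of 34.7 to 426 in TAM depleted and 399 to 581 in Control libraries. Of 8 neuron markers, 8 were higher and 6 passed (median 3.66). Microglia markers were lower in 10 of 10 (median -0.49, 0 passed) and monocyte and neutrophil markers in 4 of 4 (median -1.92, 0 passed). Astrocyte markers were higher in 6 of 6 (median 1.24, 1 passed). The dendritic cell, endothelial and glioma lists had values on both sides of 0, with medians of -0.22, -0.12 and 0.15 and 0 past the test. The part of these cells in the members' values was not tested.

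In Type 1 tumours, 0 of 40 members passed in limma-trend, and 0% of all genes did; limma-voom also called 0 members. The members had no common direction, with 25 of 40 negative (51.5% of all genes) and a median of -0.23, against -0.06 over all genes. Without adjustment 6 members had a p under 0.05 in the lower direction, where 24.5% of all genes did, and 0 in the higher one, where 5.81% did. Lower values without overlap were seen in 7 members (Rsad2, Oas3, Usp18, Apol9b, Mx2, Oas2, Ifi44), against 28.6% of all genes. These shares are below or near the background.

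The 3 members with the smallest p in Type 1 depletion were all antiviral effectors or regulators. Rsad2 had 49.4, 45.99 and 28.1 normalized counts in Type 1 TAM depleted and 91.9, 84.7, 102, 115 and 93.8 in Type 1 Control libraries (log2 fold change -1.26, SE 0.41, limma-trend adjusted p = 0.103). Oas3 had 51.1, 20.6 and 8.02 in TAM depleted and 78.5, 96.2, 107, 58.8 and 97.4 in Control libraries of Type 1 (-2.004, SE 0.70, adjusted p = 0.104). Usp18 had 43.8, 36.9 and 35.5 in TAM depleted and 95.04, 84.7, 99.98, 58.8 and 55.9 in Control libraries of Type 1 (-0.97, SE 0.36, adjusted p = 0.107). In each of the 3 genes every depleted library lay below every control, and none passed. In the separate deposited table of Type 1 libraries alone, Apol9b, Oas3 and Rsad2 passed. There 16381 genes passed, most of the 30589 genes in that table, so the members' share was below that of all genes.

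By family in Type 1 depletion, the OAS genes had a median of -0.87 and the MX and other effectors -0.92. The sensors and kinase had a median of -0.44 and the IFIT genes -0.59. The GBP and IRG GTPases had 6 of 6 positive values, at 0.28 to 0.75, but only 4 of 6 under upper quartile scaling and under quantile normalization. That sign rested on single libraries: the GTPase median was 1.55 without TAM depleted 3 and -0.20 without TAM depleted 1. Irgm1, for example, had 1219, 1105 and 157 normalized counts in Type 1 TAM depleted and 1702, 245, 469.9, 591 and 235 in Type 1 Control libraries, with the extremes of each group overlapping. Psmb9 had 165, 129.5 and 8.59 in TAM depleted and 200.4, 18.7, 68.7, 36.2 and 64.96 in Control libraries of Type 1, and a fold change of 0.02 (SE 0.96).

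Several members gave lower values in 1 or more Type 1 depleted libraries without passing the test. Apol9b had 8.99, 10.3 and 0.573 normalized counts in Type 1 TAM depleted and 15.5, 15.8, 30, 19.6 and 21.7 in Type 1 Control libraries (-1.90, SE 0.82). Mx1 had 30.3, 14.5 and 2.86 in TAM depleted and 24.8, 55.98, 76.2, 27.1 and 34.3 in Control libraries of Type 1 (-1.72, SE 0.66). Mx2 had 29.2, 16.9 and 21.8 in TAM depleted and 34.1, 41.6, 64.99, 36.2 and 43.3 in Control libraries of Type 1 (-0.92, SE 0.40). Mx2 and Apol9b did not overlap between the groups, and TAM depleted 3 was the lowest library for Mx1 and Apol9b. Stat2, Eif2ak2 and Xaf1 were close to 0 at -0.01, -0.07 and -0.08, with 95% intervals of -1.03 to 1.02, -0.74 to 0.61 and -1.25 to 1.09.

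The other members given by library overlapped between the Type 1 groups. Bst2 had 110.1, 56.3 and 23.5 normalized counts in Type 1 TAM depleted and 98.1, 25.8, 58.7, 51.3 and 41.5 in Type 1 Control libraries. Parp14 had 235, 185 and 79.6 in TAM depleted and 233, 136, 274, 179 and 137 in Control libraries of Type 1. TAM depleted 1 was the highest and TAM depleted 3 the lowest depleted library in both. Oasl2 had 248, 178 and 151 in TAM depleted and 427, 239.7, 426, 345 and 125 in Control libraries of Type 1. Oas1a had 33.1, 20.6 and 16.6 in TAM depleted and 40.3, 24.4, 37.5, 42.2 and 27.1 in Control libraries of Type 1. For Oas1a, TAM depleted 2 and 3 lay below every control and TAM depleted 1 within them. The TAM depleted values were 282, 248 and 212 for Stat2, 177, 206 and 79.1 for Xaf1 and 99.4, 78.1 and 130.04 for Ifi27.

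Of 14 macrophage markers in Type 1, 12 were lower with depletion and 0 passed (median -0.36), with sums of 1451 to 3447 normalized counts in TAM depleted and 1896 to 3696 in Control libraries. Of 11 T and NK cell markers, 11 were lower and 0 passed (median -2.18), with sums of 18.3 to 229 in TAM depleted and 260.3 to 388 in Control libraries. Depletion and background set coincide in Type 1 and cannot be told apart. A fit with the background set as a term, which takes the size of the background effect from the Type 2 libraries, gave a member median of -0.94 with 40 of 40 negative and 0 past the test.

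**Figure D4:**
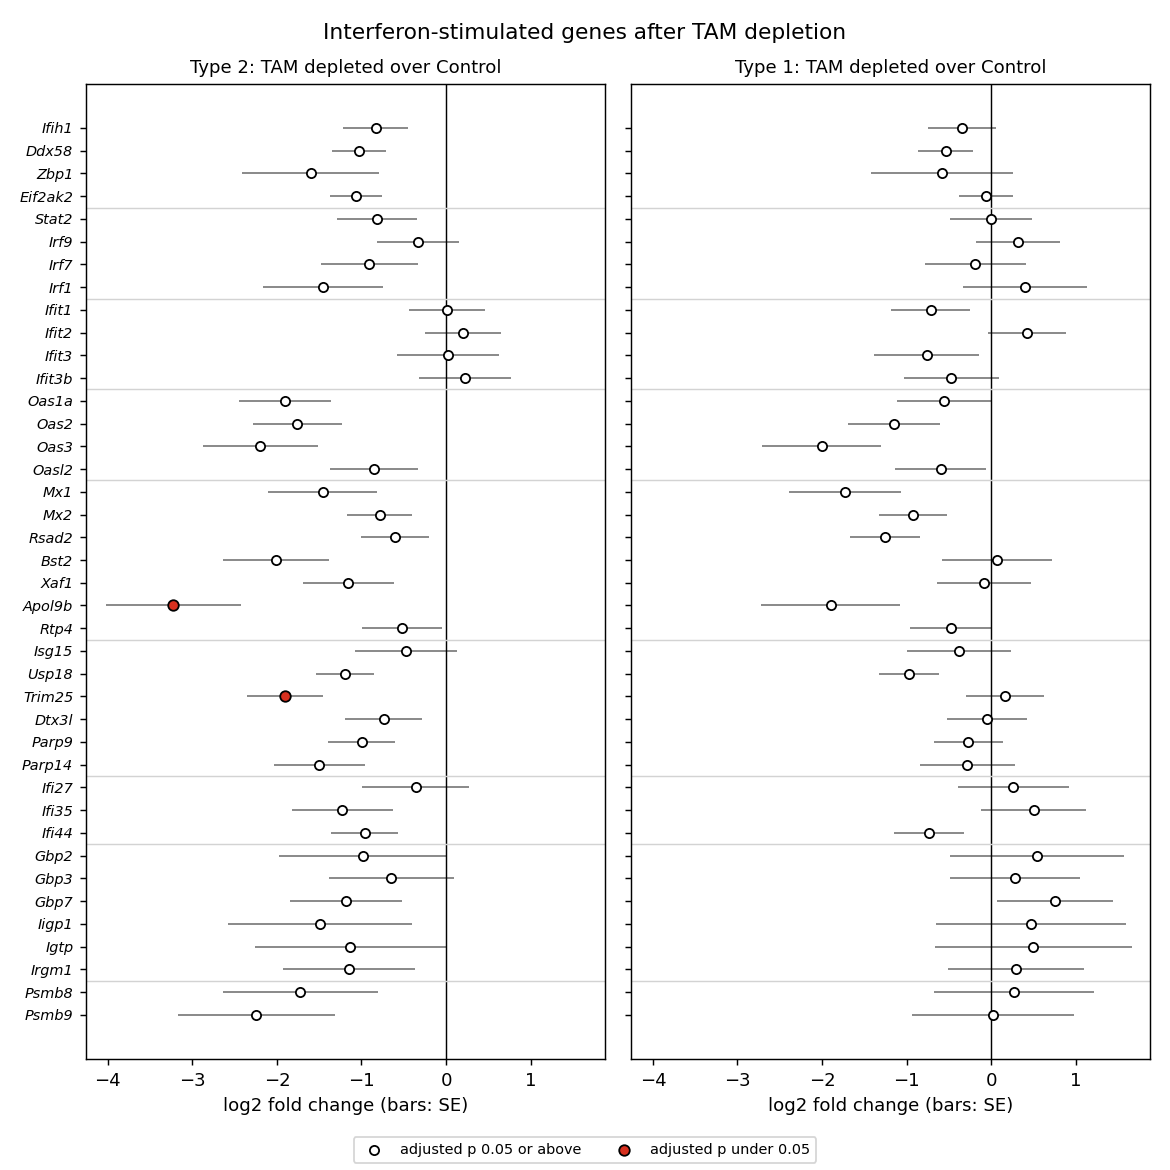
Log2 fold change of each of the 40 genes for TAM depleted over Control, in Type 2 (left) and Type 1 (right), with bars of 1 SE; filled points have an adjusted p under 0.05. Trim25 and Apol9b are filled in Type 2 and no gene is filled in Type 1, where the points sit on both sides of 0.

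The difference between the 2 depletion responses was tested directly, as the Type 2 change minus the Type 1 change. Of 40 members, 0 passed in limma-trend (0% of all genes), 0 in limma-voom, and 3 had an unadjusted p under 0.05 in the negative direction (4.87% of all genes). Negative differences were seen in 34 of 40 (44% of all genes), with a median of -0.72 against 0.16. The smallest p was that of Trim25 at -2.07 (SE 0.65, limma-trend adjusted p = 0.462), followed by Bst2 at -2.08 (SE 0.90, adjusted p = 0.491) and Eif2ak2 at -1.0 (SE 0.45, adjusted p = 0.491). A call in Type 2 and none in Type 1 is therefore not shown to be a difference between the tumour kinds for any member. With the background set as a term, the median moved to -0.18 and 23 of 40 members were negative.

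Among control tumours, the RNA-activated kinase gene Eif2ak2 and the RNA sensor gene Ddx58 were higher in Type 2 than in Type 1. These were 2 of 40 members and 2 of the 4 sensors and kinase, with 2.28% of all genes past the test in the higher and 3.09% in either direction. All 40 members had positive values (37.8% of all genes), with a median of 1.17 against -0.23 over all genes. Under quantile normalization 4 were negative, 3 of them IFIT genes, and under upper quartile scaling 1 was. Without adjustment 18 members had a p under 0.05 in the higher direction (8.47% of all genes). Type 2 Control libraries lay above every Type 1 Control library in 7 members (Eif2ak2, Ddx58, Bst2, Parp14, Trim25, Zbp1, Apol9b), against 5.03% of all genes. These control libraries also enter the depletion comparisons, so the values are not independent of those.

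Eif2ak2, at chr17:78852564-78882573 (GRCm38, - strand, protein-coding), had 415, 704, 399 and 792 normalized counts in Type 2 Control and 337, 248, 237, 226 and 152 in Type 1 Control libraries. Ddx58, at chr4:40203773-40239828 (GRCm38, - strand, protein-coding), had 408, 726, 389.98 and 563 in Type 2 Control and 218, 214, 239.96, 283 and 149.8 in Type 1 Control libraries. Both genes separated the groups with no overlap. Eif2ak2 averaged 577 ± 200.2 (SD, n = 4) in Type 2 Control and 240.1 ± 66.05 (SD, n = 5) in Type 1 Control libraries, which is 2.36-fold higher (log2 fold change 1.24, SE 0.30, limma-trend adjusted p = 0.0274). Ddx58 averaged 522 ± 157 (SD, n = 4) and 221 ± 48.5 (SD, n = 5) in the same groups, a log2 fold change of 1.22 (SE 0.30, 2.33-fold higher, adjusted p = 0.0322). Neither passed in the high-background controls alone, where they stood at 0.80 (Eif2ak2) and 0.88 (Ddx58), with the background set as a term (0.98 and 1.03), or without Type 1 Control 2, 3 or 5 or Type 2 Control 2 or 4.

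The third member by p was Bst2, which had 118, 362, 139.8 and 444 normalized counts in Type 2 Control and 98.1, 25.8, 58.7, 51.3 and 41.5 in Type 1 Control libraries. These groups did not overlap, and its 2.15 (SE 0.60, limma-trend adjusted p = 0.0626) did not pass. Parp14 stood at 1.74 (SE 0.52), with 286, 1417, 518 and 708 in Type 2 Control and 233, 136, 274, 179 and 137 in Type 1 Control libraries. Xaf1 had 200.2, 773, 537 and 581 in Type 2 Control and 318, 123, 192, 164 and 63.2 in Type 1 Control libraries, a fold change of 1.63 (SE 0.51). For Xaf1 the groups overlapped through Type 2 Control 1 and Type 1 Control 1 alone. Trim25 was at 1.34 (SE 0.43, adjusted p = 0.115).

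By family, the largest medians between the controls were those of the immunoproteasome (2.41) and of the GBP and IRG GTPases (1.87), each with 0 past the test. Psmb9 had 132, 613, 291 and 814 normalized counts in Type 2 Control and 200.4, 18.7, 68.7, 36.2 and 64.96 in Type 1 Control libraries (2.68, SE 0.88, limma-trend adjusted p = 0.13). Irgm1 had 579, 3869, 1336 and 3653 in Type 2 Control and 1702, 245, 469.9, 591 and 235 in Type 1 Control libraries (1.90, SE 0.74). In both, Type 2 Control 2 and 4, the low-background controls, were the highest. The IFIT family had the smallest median at 0.26, and Ifit2 overlapped with 96.5, 547, 182 and 385 in Type 2 Control and 215, 128, 181, 197 and 81.2 in Type 1 Control libraries. Medians of the other families were 1.23 (sensors and kinase, and also ISG15 system and ubiquitin ligases), 1.09 (MX and other effectors), 0.93 (IFI genes), 0.92 (transcription factors) and 0.81 (OAS).

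A further 5 members overlapped between the controls. Stat2 had 218, 1019.98, 524 and 563 normalized counts in Type 2 Control and 281, 245, 344, 217 and 177 in Type 1 Control libraries. Oas1a had 39.3, 145, 96.2 and 70.8 in Type 2 Control and 40.3, 24.4, 37.5, 42.2 and 27.1 in Type 1 Control libraries. Oasl2 had 225, 1021, 443 and 683 in Type 2 Control and 427, 239.7, 426, 345 and 125 in Type 1 Control libraries. Type 2 Control 1 reached down into the Type 1 values in all 3 of these genes. Rsad2 was the nearest to 0 at 0.08 (95% interval -0.72 to 0.89), with 85.8, 159, 67.7 and 121 in Type 2 Control and 91.9, 84.7, 102, 115 and 93.8 in Type 1 Control libraries. Ifi27 had 32.2, 527, 129.99 and 292 in Type 2 Control and 113, 84.7, 89.98, 145 and 32.5 in Type 1 Control libraries.

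Within the high-background controls alone (2 Type 2, 5 Type 1), the members' median was 0.64 with 9 of 40 negative, 0 past the test, and an IFIT median of -0.53. Beside these values, 14 of 14 macrophage markers were higher in Type 2 Control (median 1.23, 0 past the test), with sums of 3878 to 10105 normalized counts in Type 2 Control and 1896 to 3696 in Type 1 Control libraries. Of 11 T and NK cell markers, 8 were higher (median 0.35, 0 past), with sums of 399 to 581 in Type 2 Control and 260.3 to 388 in Type 1 Control libraries. Of 8 neuron markers, 8 were lower and 2 passed (median -2.35). Of 8 glioma and neural precursor markers, 7 were higher and 2 passed (median 1.63). Microglia markers were higher in 9 of 10 (median 0.88, 1 passed), with values from -0.37 for Siglech to 2.23 for Sparc. Monocyte and neutrophil markers were higher in 4 of 4 (median 1.08, 0 passed). The part of these cells in the members' values was not tested.

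Among TAM depleted tumours, 0 of 40 members passed between Type 2 and Type 1 in limma-trend (0.185% of all genes, 0.0567% in the higher direction) and 0 in limma-voom. Positive values were seen in 34 of 40 (55.8% of all genes), with a median of 0.42 against 0.11. At an unadjusted p under 0.05 there were 2 members, both higher (5.07% of all genes), namely Mx2 and Ddx58. Mx2 had 43.8, 58.00, 40.99 and 67.2 normalized counts in Type 2 TAM depleted and 29.2, 16.9 and 21.8 in Type 1 TAM depleted libraries (1.18, SE 0.42, limma-trend adjusted p = 0.275). It was the 1 member whose groups did not overlap (3.3% of all genes). Ddx58 had 184, 353, 159 and 361 in Type 2 TAM depleted and 163, 130.1 and 155 in Type 1 TAM depleted libraries (0.73, SE 0.34), and Type 2 TAM depleted 3 lay within the Type 1 values. Mx1 had the largest fold change at 1.36 (SE 0.69), with 13.1, 67.6, 17.3 and 55.7 in Type 2 TAM depleted and 30.3, 14.5 and 2.86 in Type 1 TAM depleted libraries, which overlap. That value was 0.52 without Type 1 TAM depleted 3 and 2.03 without Type 1 TAM depleted 1.

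The family with the largest median between the depleted tumours was IFIT at 0.91, with 4 of 4 positive and 0 past the test. Ifit2 had 362, 294, 302 and 199.96 normalized counts in Type 2 TAM depleted and 253, 188 and 178 in Type 1 TAM depleted libraries. The GTPases and the immunoproteasome, which had the largest medians between the controls, stood at 0.31 and 0.28. Eif2ak2 had 215, 361, 198 and 309.8 in Type 2 TAM depleted and 230.3, 178 and 268 in Type 1 TAM depleted libraries, a fold change of 0.24 (95% interval -0.47 to 0.95). Trim25 was the most negative member at -0.73 (SE 0.49). In the low-background depleted libraries alone (2 Type 2, 3 Type 1) the median was 0.41. Beside this, 9 of 14 macrophage and 9 of 11 T and NK cell markers were higher in Type 2, with 0 past the test in either list.

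**Figure D5:**
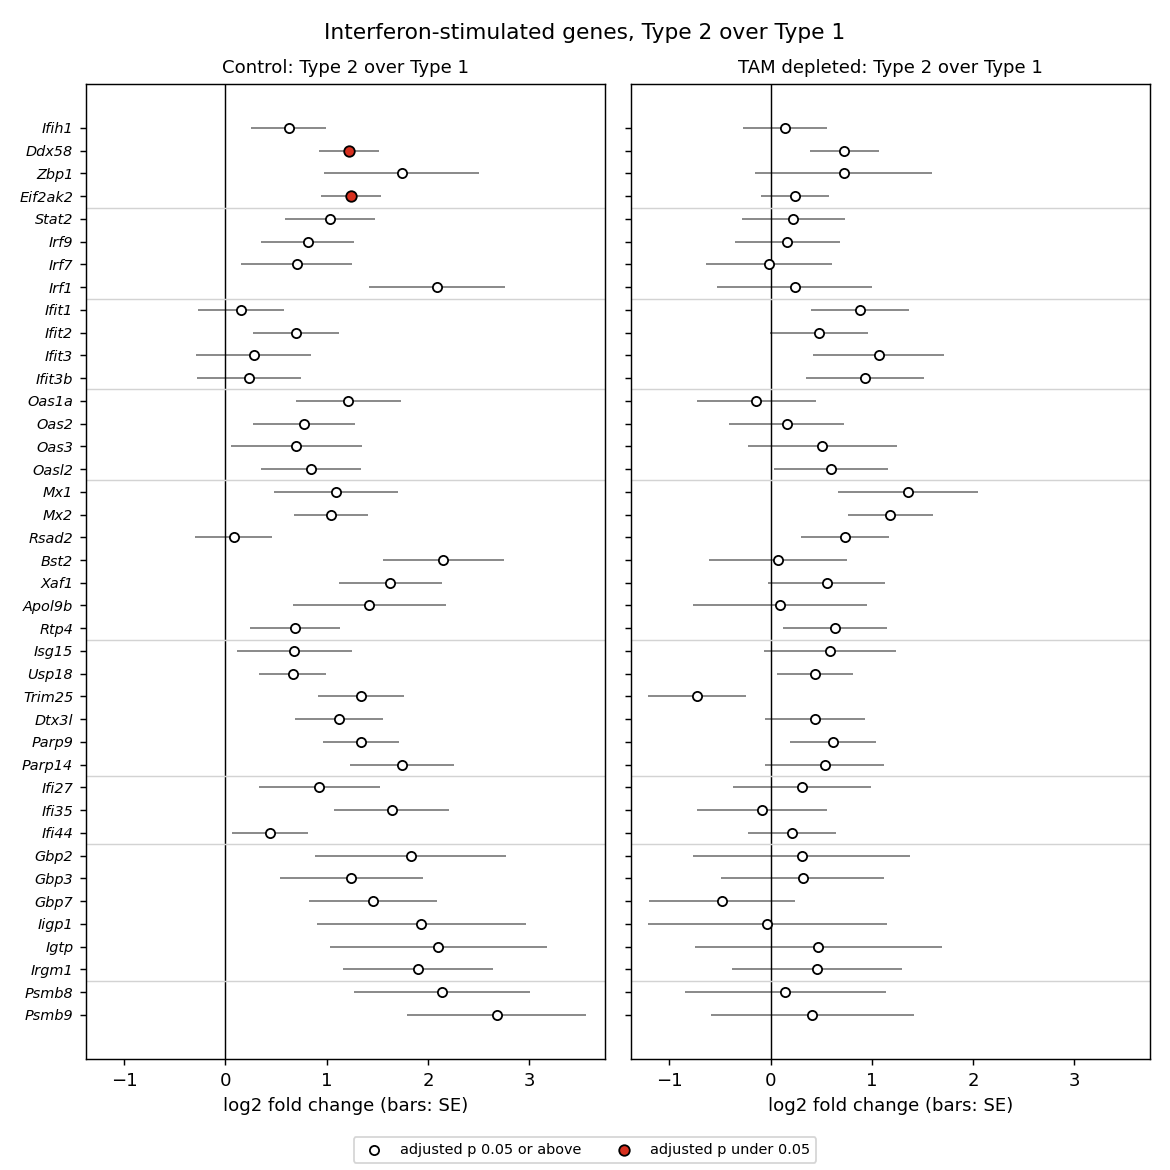
Log2 fold change of each of the 40 genes for Type 2 over Type 1, in Control (left) and TAM depleted tumours (right), with bars of 1 SE; filled points have an adjusted p under 0.05. All 40 points are above 0 between the controls, with Eif2ak2 and Ddx58 filled, and no point is filled between the depleted tumours.

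A list of 116 other genes of the interferon pathway gave 97 tested genes outside the 40. They were 6 receptors, 17 signalling genes, 7 sensors, 7 feedback genes and 60 further interferon-induced genes. The 18 ligand genes on the list, the interferons themselves, are not analysed here. In Type 2 depletion 89 of 97 had negative values (59.4% of all genes), with a median of -1.24 against -0.21, and 5 passed, all lower (1.24% of all genes). In Type 1 depletion 53 of 97 were negative (median -0.05) and 0 passed in limma-trend, with 15 lower (24.5% of all genes) and 1 higher (5.81%) at an unadjusted p under 0.05. Between the controls 92 of 97 were positive (37.8% of all genes), with a median of 1.09 against -0.23, and 7 passed, all higher (2.28% of all genes). Between the depleted tumours 77 were positive (55.8% of all genes) and 0 passed, with 4 higher at an unadjusted p under 0.05 (5.07% of all genes).

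Of the 6 receptor genes, 2 passed in Type 2 depletion and 3 between the controls. Ifngr1, the ligand-binding chain of the interferon gamma receptor, had 219, 219, 189.8 and 195 normalized counts in Type 2 TAM depleted and 336, 529, 418 and 479.9 in Type 2 Control libraries. It had 143, 310.4 and 175 in Type 1 TAM depleted and 201, 188, 175, 149 and 125 in Type 1 Control libraries. Ifngr1 thus fell with depletion in Type 2 (-1.08, SE 0.27, limma-trend adjusted p = 0.0363) and was higher in Type 2 than in Type 1 controls (1.39, SE 0.25, adjusted p = 0.00477). Il10rb, a chain shared by the interferon lambda and interleukin-10 receptors, had 50.6, 72.9, 63.6 and 80.3 in Type 2 TAM depleted and 111, 169, 227 and 211 in Type 2 Control libraries. In Type 1, Il10rb had 50.5, 62.9 and 38.96 in TAM depleted and 45.5, 41.6, 43.7, 39.2 and 66.8 in Control libraries. Its fold changes were -1.38 in Type 2 depletion (adjusted p = 0.0233) and 1.87 between the controls (adjusted p = 0.00123). For both genes the difference between the 2 depletion responses did not pass (limma-trend adjusted p = 0.435 and 0.455).

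The other receptor chains were Ifnar1 and Ifnar2 of the type I receptor, Ifngr2 and Ifnlr1. Ifnar2 was higher in Type 2 than in Type 1 controls (1.21, SE 0.31, limma-trend adjusted p = 0.0386), while Ifnar1 at 0.90 (adjusted p = 0.0695) and Ifngr2 at 0.96 (adjusted p = 0.0922) did not pass. In Type 2 depletion these 3 stood at -0.75, -0.31 and 0.06. Ifnlr1, the specific chain of the lambda receptor, stood at -2.17 in Type 2 and -1.88 in Type 1 depletion, with adjusted p values of 0.0612 and 0.103.

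The other genes that passed had varied roles. Ifi204, a DNA sensor, fell in Type 2 depletion (-1.87, SE 0.47, limma-trend adjusted p = 0.0386), with means of 74.4 ± 54.1 normalized counts in TAM depleted and 231 ± 71.3 in Control libraries (SD, n = 4 each). Its groups overlapped, with TAM depleted 4 (148) above Control 3 (135). Ptpn6, which encodes the phosphatase SHP-1 of blood cells, fell by 1.71 on the log2 scale (adjusted p = 0.0463), and Trim30a fell by 1.43 (adjusted p = 0.0483). Between the controls, Stat3 (1.38), Sting1 (1.71), Slfn5 (1.46) and Herc6 (1.31) were higher in Type 2, with limma-trend adjusted p values of 0.0208, 0.035, 0.0377 and 0.0496. Stat3 is a signal transducer of cytokines, Sting1 the adaptor of cytosolic DNA sensing, and Herc6 the ligase that attaches ISG15 in the mouse. For Sting1, Type 2 Control 4 stood at 728 normalized counts, against 139, 281 and 142 in Type 2 Control 1, 2 and 3. How far the calls of the pathway genes depend on single libraries or on the background set is not given here.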

How the data were processed

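TRIzol and the miRNeasy Micro kit served for RNA, and the SMART-Seq v4 kit, which marks no strand, for the libraries, per the labels' protocols. STAR 2.7.8a, GRCm38 and DESeq2 are named in the submitters' processing notes; the counter and the annotation are not stated in what was used here. The authors deposited log2 values on a variance-stabilized scale in 3 tables (26466, 30589 and 26130 genes). They were inverted to normalized counts; in each library all of them (100%) are whole multiples of a common step to within 0.05 reads, so reads and size factors could be recovered. The test took the 26463 genes that reached a normalized count of 10 in 3 libraries or more and was made by limma-trend from limma 3.58.1 under R 4.3.3, with a pseudocount of 1 on the log2 scale. A single model held the 4 group means of the 16 libraries and left 12 residual degrees of freedom. Tests were 2-sided, p-values were adjusted after Benjamini and Hochberg over these genes, and 0.05 was the threshold; the fit was tested on simulated data. The deposited unit is log2, and no count test was run, although reads could be recovered. Limma-voom on the recovered reads was an alternative.

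Groups come from the sample titles. Depth is given in the report; intervals cover counting error or spread only. Libraries of a group all differed by more than counting noise (chi-square over its degrees of freedom at least 9.43). The 40 members and the lists of roles, pathway genes and markers were chosen with earlier results of these data known. Members with all library values are those past the threshold in any of 5 comparisons, the highest of each of 9 roles, and the 3 smallest p in each comparison. The Type 2 against Type 1 comparisons within 1 background set, and the background term outside Type 2 depletion, were chosen after seeing the data. Gene positions come from GENCODE vM21 on GRCm38 and count from 1. Promoters are from RefSeq (GRCm38.p6); 30 of 40 symbols matched.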

Additional observations from a re-analysis of the deposited data

Results flagged for a closer look

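Of 120 sets of 4 or 5 libraries of a member examined for 1 library far from the others, 1 was marked, where chance alone marks about 1 in 20. Oas2 had 57.2 normalized counts in Type 2 Control 1, against 127, 144 and 135 in Type 2 Control 2, 3 and 4. The gap to the nearest library was 0.861 of the group's range (Dixon's criterion). Type 2 Control 1 was also the shallowest library (4.21 M reads) and had the most receptor-gene reads (8650 per M). Their part in the Oas2 value was not tested.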

How the results depend on the processing

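No result changed its called direction. Counts of members past the threshold depended on the setting. The share of all genes is not given for each setting, so a higher count is not a result about the members in particular. For Type 2 depletion (2 members) the count was 4 with a filter of 50, 9 under upper quartile scaling, 5 under quantile normalization, 4 on the deposited values as they stand, 6 with limma-voom, 4 with library quality weights, 9 with the background set as a block, and 0 in the table of Type 2 alone and in either background set alone. Between the controls (2 members) it was 4 with a filter of 50, 9 under quantile normalization, 5 with limma-voom, 26 with quality weights, and 0 with the background block and in the high-background controls alone. For Type 1 depletion (0 members) it was 9 with quality weights and 3 in the table of Type 1 alone, and the median was -0.94 with the background block. For the difference of responses (0 members) it was 2 with quality weights. Causes were not tested. Uncalled medians changed sign with quality weights (0.11 in Type 1 depletion, -0.12 between the depleted tumours) and in the table of Type 1 alone (0.10). Over all genes, Type 2 depletion gave 956 calls, against 436 with quality weights, 297 with the replicate block and 2635 with the background block. Upper quartile scaling moved the median of all genes to -0.50 in Type 1 and -0.47 in Type 2 depletion, with member medians of -0.68 and -1.33; the split of all Type 2 calls, 627 higher and 329 lower, became 623 and 678.

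Leaving out 1 library gave 0 to 7 members for Type 2 depletion (0 without Control 3 or TAM depleted 1, 1 without Control 2, Control 4 or TAM depleted 3, 7 without TAM depleted 4). Between the controls it gave 0 to 8 (0 without Type 1 Control 2, 3 or 5 or Type 2 Control 2 or 4, 1 without Type 1 Control 1 or 4, 8 without Type 2 Control 1). The other comparisons gave 0 to 0. Member medians ran from -1.35 to -0.73 (Type 2 depletion), -0.53 to 0.09 (Type 1 depletion, above 0 only without TAM depleted 3), -1.20 to -0.38 (difference), 0.89 to 1.47 (controls) and 0.05 to 0.77 (depleted tumours).

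With the replicate number as a block, 0 members passed in Type 2 depletion and 0 between the controls. Correlations of same-numbered libraries ran from -0.67 to 0.50. In Type 2 they were positive for numbers 2 and 3 (0.50 and 0.30), whose libraries share a background set. They were negative for numbers 1 and 4 (-0.67 and -0.60), whose libraries differ in it. Whether the numbers pair the samples therefore cannot be told from these correlations. Apol9b had the fewest reads of the members, 0 in Type 2 TAM depleted 1 and 1 in Type 1 TAM depleted 3, neither of them a shallow library.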
